A study of Mus musculus with 8 samples.

Results

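The genes described are the subunits of the transcription factor NF-kappaB and its inhibitors, in PD-1hi effector CD8 T cells sorted from leukaemia-bearing mice. The list names 10 genes: the subunit genes Nfkb1, Nfkb2, Rel, Rela and Relb, the inhibitor genes Nfkbia, Nfkbie, Tnfaip3 and Nfkbiz, and Bcl3. A gene was taken where the table holds a row that carries its symbol and no other. This found 9 of the 10 members among the 22180 genes so named, each with 1 row, and Nfkb1 was not analysed here. All 9 were bright enough to be among the 12019 genes tested.

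Female C57BL/6 mice of unstated age carried transplanted leukaemia cells of Eµ-TCL1 mice, in which a TCL1 transgene under B cell control causes a disease like human chronic lymphocytic leukaemia. From 3 weeks after transplantation, 1 group received an antibody that blocks the interleukin 10 receptor (anti-IL-10R) and the other an isotype control antibody, for 2 weeks, and spleens were taken at 5 weeks. All 8 samples therefore came from mice with leukaemia, 4 in each group, and no healthy mouse is among them. The sort took lineage-negative cells with CD8 and T cell receptor beta on their surface, little CD127, medium to high CD44 and much PD-1, an inhibitory receptor. Nothing in the labels ties the arrays to separate animals, so every p-value measures the spread between these arrays, which may be technical.

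NF-kappaB proteins work as dimers that inhibitory IkappaB proteins hold in the cytoplasm. Signals from the T cell receptor, from costimulatory receptors of the tumour necrosis factor family and from cytokine receptors activate the IKK kinases, which mark the IkappaB proteins for destruction and free the dimers to enter the nucleus. Several of the genes that the dimers switch on encode their own inhibitors and subunits, so that the pathway shuts itself down and resets. In T cells this transcription factor is known for its role in activation, survival and cytokine production. The arrays measured transcript levels, and the position or activity of the NF-kappaB proteins was not measured.

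Start-site regions of 4 of these genes are shown because the known feedback runs through them: Nfkbia and Nfkb2 as an inhibitor and a subunit, and Tnfaip3 and Nfkbie as the members with the largest differences between the groups. Each sequence runs from 250 bases before to 50 bases after the first start site listed for the gene, 5′ to 3′ along the gene's own strand (RefSeq, GRCm38.p6). Capitals mark matches on either strand to the kappaB consensus, a run of G followed by a purine, any base, A or T, pyrimidines and a run of C, and matches that overlap are joined. The consensus is nearly the same on both strands, so a site can match on both.
Nfkbia, chr12:55492598-55492897, - strand: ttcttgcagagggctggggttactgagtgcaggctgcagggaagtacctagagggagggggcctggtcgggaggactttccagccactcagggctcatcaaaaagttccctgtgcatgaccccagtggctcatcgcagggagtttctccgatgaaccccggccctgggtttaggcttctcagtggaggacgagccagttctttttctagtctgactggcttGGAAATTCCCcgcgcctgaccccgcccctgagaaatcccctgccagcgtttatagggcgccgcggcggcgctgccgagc
Nfkbie, chr17:45555450-45555749, + strand: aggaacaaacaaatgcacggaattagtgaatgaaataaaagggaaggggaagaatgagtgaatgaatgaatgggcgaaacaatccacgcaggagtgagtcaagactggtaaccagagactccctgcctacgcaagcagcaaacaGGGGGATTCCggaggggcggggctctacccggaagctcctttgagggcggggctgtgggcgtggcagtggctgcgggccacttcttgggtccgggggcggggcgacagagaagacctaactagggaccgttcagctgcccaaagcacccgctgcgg
Tnfaip3, chr10:19015361-19015660, - strand: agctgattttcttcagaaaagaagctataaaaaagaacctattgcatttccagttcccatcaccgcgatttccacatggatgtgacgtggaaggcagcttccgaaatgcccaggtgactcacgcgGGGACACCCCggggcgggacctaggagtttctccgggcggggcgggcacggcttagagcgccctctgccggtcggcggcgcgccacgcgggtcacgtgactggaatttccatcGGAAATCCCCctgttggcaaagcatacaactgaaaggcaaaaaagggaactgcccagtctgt
Nfkb2, chr19:46304487-46304786, + strand: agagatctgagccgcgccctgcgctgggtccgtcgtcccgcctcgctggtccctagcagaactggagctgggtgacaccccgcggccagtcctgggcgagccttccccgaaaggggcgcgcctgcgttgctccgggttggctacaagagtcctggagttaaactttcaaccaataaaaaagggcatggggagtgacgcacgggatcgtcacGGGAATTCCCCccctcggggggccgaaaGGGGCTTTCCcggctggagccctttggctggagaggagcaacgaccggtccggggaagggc

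Of the 7 members with an entry in the table of start-site regions, 6 held the kappaB consensus in at least 1 such region (Nfkb2, Rel, Nfkbia, Nfkbie, Tnfaip3 and Bcl3). Over all 27018 genes of that table, 5.14% did, and of its 32841 regions of 300 bases, 4.51% did. The sites of the other members were GGGAAATCCC in Rel, which overlaps a second match shifted by a base, and GGGAAGTCCC in Bcl3. These counts describe letters in a window and say nothing about whether a factor was bound in these cells. Relb and Nfkbiz had no entry, and Rela had no match in its 1 region. Counted by region, 8 of the members' 10 held the consensus. Nfkb2 had 3 regions, all with a match, and Tnfaip3 had 2, of which the second had none.

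After IL-10 receptor blockade, no NF-kappaB subunit or inhibitor passed the threshold. The signals of all 9 genes were higher on average in the anti-IL-10R arrays, by 0.05 to 0.42 on the log2 scale with a median of 0.13, where 54.7% of all tested genes were higher and their median was 0.03. After quantile normalization or median centring, Nfkb2, Rela, Rel and Bcl3 differed by at most 0.025 in either direction. The 2 largest differences were those of Tnfaip3, which encodes the ubiquitin-editing inhibitor A20 (0.42 ± 0.16 SE), and Nfkbie, which encodes IkappaB epsilon (0.34 ± 0.14). The 4 measured subunit genes differed by at most 0.13.

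In limma's test across all genes, 0 of the 9 members had an adjusted p below 0.05, against 2.53% of the tested genes (1.23% higher and 1.30% lower, 148 and 156 genes). Without isotype replicate 1 it was again 0 of 9, against 9.25%. With any other single array left out it was also 0 of 9, and the calls over all genes fell from 304 to between 3 and 62. At an unadjusted p below 0.05 there were 2 members, Nfkbie and Tnfaip3, against 20.0% of the tested genes, and the same 2 without isotype replicate 1, against 27.3%. The anti-IL-10R arrays all lay above the isotype arrays for 1 member, Tnfaip3, and for 9.32% of the tested genes. The members' shares thus lay near those of all genes for each of these 3 counts, whereas the common positive sign is a description of a list chosen with results known. Counts over all genes depended on the scaling: quantile normalization gave 204 higher and 427 lower, and centring each array on its median 42 higher and 75 lower.

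The array of isotype replicate 1 stood apart. Its correlation with the other arrays over the tested genes was 0.915 to 0.929 (Pearson's r over genes, which are no independent replicates), against 0.962 to 0.986 among the other 7. The array medians were 5.29, 5.19, 5.20 and 5.19 on isotype replicates 1 to 4 and 5.24, 5.24, 5.25 and 5.31 on anti-IL-10R replicates 1 to 4. Of the marker lists for other cells, that for B cells had its highest mean on isotype replicate 3. Those for myeloid, natural killer, and CD4 and regulatory T cells had their highest means on isotype replicate 1. Foxp3, the transcription factor of regulatory T cells, had a signal of 7.97 there against 5.08 to 5.95 on the other 7 arrays. Cd79a, a part of the B cell receptor, had 6.80 there against 5.07 to 5.91. That is 1 marker, and the mean of its list was not highest there. Pdcd1, which encodes PD-1, the protein the cells were sorted for, had 10.34 there against 11.10 to 11.55.

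All 7 measured T cell markers were above the limit of 5.24 for dim genes. Like the averages of the members, their list mean was higher in the anti-IL-10R arrays, at 11.37 to 11.63 in isotype and 11.72 to 11.77 in anti-IL-10R arrays (summed linear signal 21164 to 25365 and 27355 to 28126). Cd3e, which encodes CD3 epsilon, had 12.23 to 12.45 and 12.57 to 12.61, Cd8a had 10.72 to 10.91 and 11.11 to 11.15, and Pdcd1 had 10.34 to 11.20 and 11.33 to 11.55. Neither the list mean nor these 3 genes overlapped between the groups, and their part in the members' common sign was not tested. Of 13 measured B cell markers, 6 were above that limit, and their mean over the list was 5.33 to 5.90 in isotype and 5.32 to 5.50 in anti-IL-10R arrays. Their summed linear signal was 1159 to 1491 and 1339 to 1395. Of 10 myeloid markers 4 were above it, with list means of 4.65 to 5.19 and 4.78 to 4.89 (summed 286 to 478 and 351 to 374), and of 7 dendritic cell markers 4, with means of 5.36 to 5.43 and 5.25 to 5.44 (summed 310 to 376 and 286 to 384). For the 3 CD4 and regulatory T cell markers, of which 2 were above it, the means were 5.44 to 6.50 and 5.38 to 5.66 (summed 137 to 363 and 134 to 165). Both measured natural killer cell markers were below it, with means of 3.80 to 4.90 and 3.98 to 4.30 (summed 27.8 to 61.8 and 31.6 to 39.4). Of the 2 measured erythroid and platelet markers 1 was above it, with means of 4.95 to 5.31 and 5.07 to 5.37 (summed 64.4 to 81.3 and 77.7 to 85.4). B cells, dendritic cells and regulatory T cells also express NF-kappaB genes. With the mean of the 13 B cell markers as a covariate, the difference of Rel went from 0.07 to 0.24 and that of Nfkbia from 0.17 to 0.09. Only 6 of those markers were above the limit, so that fit cannot settle the part of B cells. The part of the other cells in the values below was not tested. In sorted bulk samples, a different share of cells expressing a gene and a different amount of RNA per cell cannot be told apart.

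**Figure D1:**
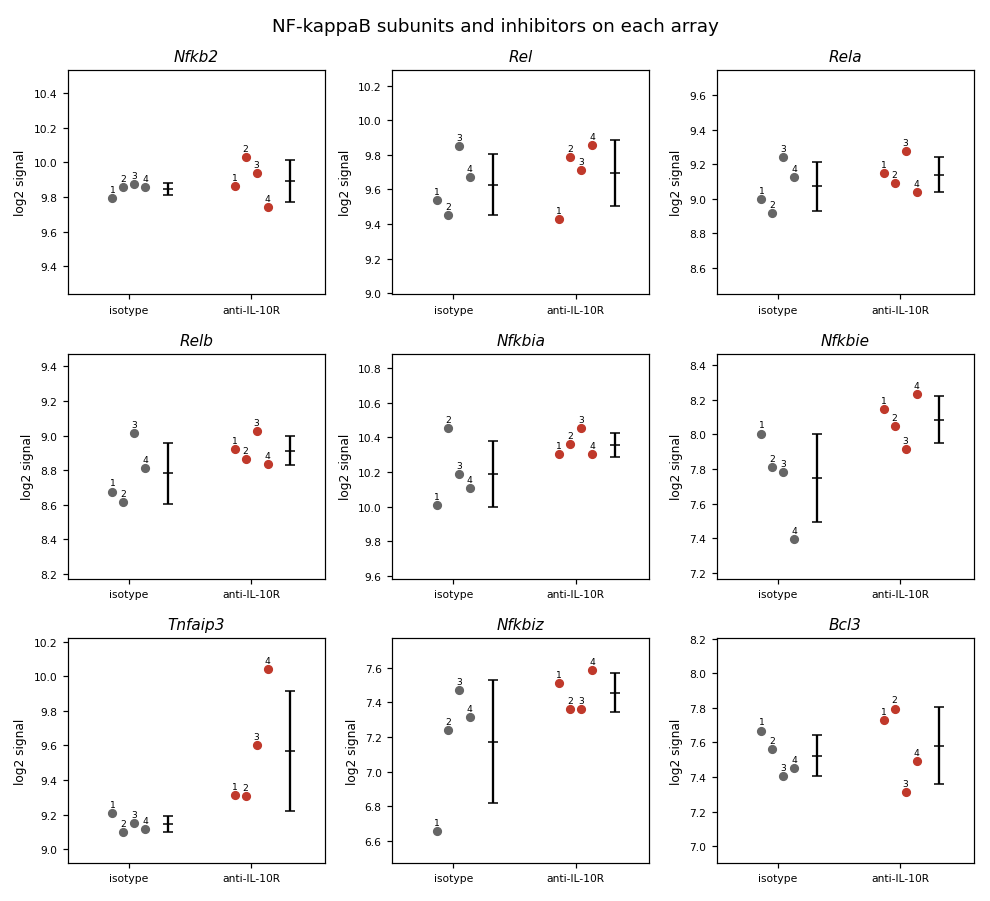
Signals (log2) of 9 NF-kappaB genes on each array, isotype in grey and anti-IL-10R in red, with the replicate number above each point; bars give the group mean ± SD (n = 4), and every panel spans the same range of log2 units. Only for Tnfaip3 do the red points, 9.31 to 10.04, all lie above the grey ones, 9.10 to 9.21.

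Among the subunits that carry a transactivation domain, Rela encodes p65, the partner of p50 in the common dimer. Its signals were 8.998, 8.92, 9.24 and 9.12 on isotype replicates 1 to 4 and 9.15, 9.09, 9.27 and 9.04 on anti-IL-10R replicates 1 to 4. The groups overlapped, with a difference of 0.07 ± 0.11 (SE, limma adjusted p = 0.79). Rel encodes c-Rel, the subunit tied to lymphocyte activation and interleukin 2 transcription. It had 9.54, 9.45, 9.85 and 9.67 in the isotype arrays and 9.43, 9.79, 9.71 and 9.86 in the anti-IL-10R arrays. The lowest of all 8 values was anti-IL-10R replicate 1, and the difference was 0.07 ± 0.14 (adjusted p = 0.82).

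Relb and Nfkb2 belong to the alternative pathway, in which p100, the product of Nfkb2, is cut to p52 and acts with RelB. Relb had 8.68, 8.62, 9.02 and 8.81 in the isotype and 8.92, 8.87, 9.03 and 8.83 in the anti-IL-10R arrays. Isotype replicates 1, 2 and 4 lay below every anti-IL-10R array, isotype replicate 3 lay close to the highest of them, and the difference was 0.13 ± 0.12 (SE, limma adjusted p = 0.59). Nfkb2 had the smallest range of the members over all 8 arrays, 0.28. It was also the steadiest in the isotype arrays, with 9.79, 9.86, 9.87 and 9.86, an SD of 0.036. In the anti-IL-10R arrays it had 9.86, 10.03, 9.94 and 9.74, which include both the highest and the lowest of the 8 values. Its SD there, 0.12, was larger than those of Rela, Relb, Nfkbia and Nfkbiz. Its difference was 0.05 ± 0.10 (adjusted p = 0.84).

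For these 4 subunits the 95% intervals of the difference ran from −0.18 to 0.28 for Nfkb2, −0.19 to 0.32 for Rela, −0.23 to 0.37 for Rel and −0.13 to 0.40 for Relb. As fold changes, the upper bounds were 1.21, 1.25, 1.29 and 1.32, so the intervals include changes up to those sizes and a test that missed the threshold does not show equal levels. Leaving out 1 array moved each of these small differences by over 1.5 times. Rela ranged from 0.02 (without isotype replicate 2) to 0.12 (without isotype replicate 3) and Relb from 0.08 to 0.21 without the same arrays. Rel ranged from 0.0098 (without isotype replicate 2) to 0.16 (without anti-IL-10R replicate 1), and Nfkb2 from 0.0022 (without anti-IL-10R replicate 2) to 0.097 (without anti-IL-10R replicate 4). Rela and Relb were the most alike of all pairs of members, with a root-mean-square distance of 0.04 between profiles centred on each gene's own mean over the 8 arrays. Both ranked the isotype arrays in the order replicate 2, 1, 4, 3 from low to high, and the anti-IL-10R arrays in the order 4, 2, 1, 3. Rel shared the order of the isotype arrays and not that of the anti-IL-10R arrays; its nearest member was Relb at 0.15, and that of Nfkb2 was Rela at 0.11.

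Among the classical inhibitors, Nfkbia encodes IkappaB alpha, which retains the p65 dimers and is quickly made anew after activation. Its signals were 10.01, 10.46, 10.19 and 10.11 in the isotype arrays and 10.30, 10.36, 10.45 and 10.31 in the anti-IL-10R arrays. Isotype replicate 2 was the highest of all, the other 3 isotype arrays lay below every anti-IL-10R array, and the difference was 0.17 ± 0.12 (SE, limma adjusted p = 0.49). Nfkbie encodes IkappaB epsilon, an inhibitor that is made later and acts on dimers with p65 and c-Rel. It had 8.005, 7.81, 7.78 and 7.40 in the isotype and 8.14, 8.05, 7.91 and 8.24 in the anti-IL-10R arrays. A single crossing kept the groups from parting: isotype replicate 1, at 8.005, lay above anti-IL-10R replicate 3, at 7.91.

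The difference of Nfkbie, 0.34 (95% interval 0.01 to 0.66), corresponds to 1.26-fold and did not pass (limma adjusted p = 0.23). It was 0.42 without isotype replicate 1 (adjusted p = 0.072) and 0.22 without isotype replicate 4, its lowest array. Nfkbia differed by 0.25 without isotype replicate 2 and by 0.11 without isotype replicate 1. Their nearest members were Nfkb2 at 0.14 for Nfkbia and Bcl3 at 0.23 for Nfkbie.

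Tnfaip3 encodes A20, which edits ubiquitin chains on signalling proteins upstream of the IKK kinases and so limits both tumour necrosis factor and antigen receptor signals. It had 9.21, 9.10, 9.15 and 9.12 in the isotype arrays and 9.31, 9.31, 9.60 and 10.04 in the anti-IL-10R arrays. The isotype values were tight, with an SD of 0.048, and the anti-IL-10R values were spread, with an SD of 0.35: anti-IL-10R replicates 1 and 2 lay just above the isotype arrays and replicate 4 far above them. The difference was 0.42 ± 0.16 (SE), 1.34-fold with a 95% interval of 1.04 to 1.73, higher in 4 of 4 arrays, and did not pass (limma adjusted p = 0.19). Without anti-IL-10R replicate 4 it was 0.26, and without isotype replicate 1, 0.44 (adjusted p = 0.13).

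The tested genes whose profiles lay nearest to that of Tnfaip3 were Mrgpra1, a receptor gene of the Mas-related family, at a root-mean-square distance of 0.09 over the 8 arrays, and the microRNA genes Mir574 at 0.09 and Mir1956 at 0.10. They share the high value on anti-IL-10R replicate 4, with 7.37 for Mrgpra1, 7.51 for Mir574 and 9.49 for Mir1956, each the highest of the 8 arrays. None of these 3 passed the threshold (limma adjusted p 0.28, 0.34 and 0.24). The nearest member to Tnfaip3 was Nfkbie, at 0.24, farther than any other member's nearest member.

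Nfkbiz and Bcl3 encode atypical IkappaB proteins that act in the nucleus on dimers of p50 or p52 and can raise as well as lower transcription. Nfkbiz had 6.66, 7.24, 7.47 and 7.32 in the isotype arrays and 7.51, 7.36, 7.36 and 7.59 in the anti-IL-10R arrays. Isotype replicate 1 was far below the other 7 arrays, and isotype replicate 3 lay within the anti-IL-10R range. The difference of 0.28 ± 0.17 (SE, limma adjusted p = 0.40) was 0.11 ± 0.11 without isotype replicate 1. Bcl3 had 7.67, 7.56, 7.41 and 7.45 in the isotype and 7.73, 7.80, 7.31 and 7.49 in the anti-IL-10R arrays. In both groups replicates 1 and 2 were the higher pair, and the difference was 0.06 ± 0.13 (adjusted p = 0.85), or −0.01 without anti-IL-10R replicate 2 and −0.02 after quantile normalization.

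**Figure D2:**
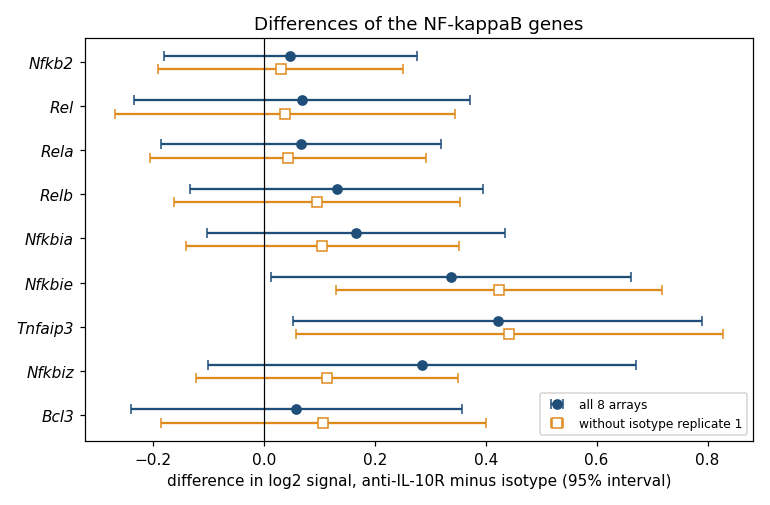
Difference in log2 signal, anti-IL-10R minus isotype, for each NF-kappaB gene with its 95% interval from limma, over all 8 arrays (filled) and without isotype replicate 1 (open squares). Only the intervals of Nfkbie and Tnfaip3 lie above 0, and Nfkbiz shifts from 0.28 to 0.11 without that array.

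**Figure D3:**
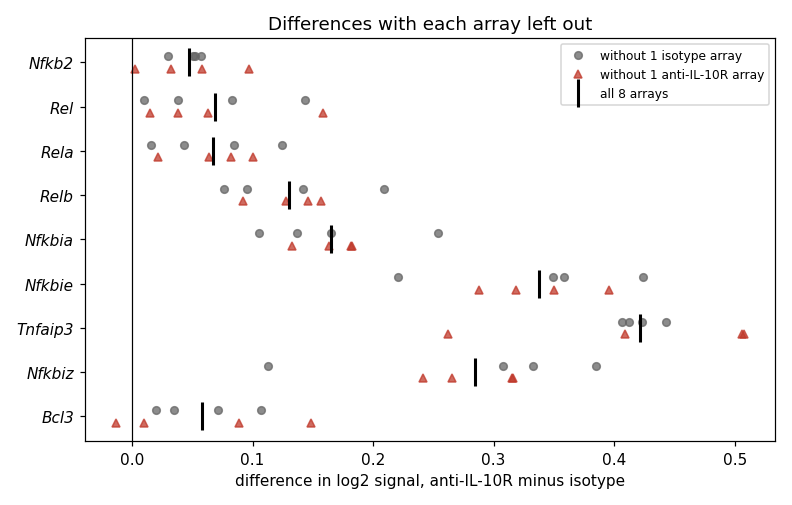
Difference in log2 signal of each NF-kappaB gene with each array left out in turn (grey circles, 1 isotype array removed; red triangles, 1 anti-IL-10R array removed); the black bar is the value over all 8 arrays. Bcl3 alone falls below 0, and Tnfaip3 spans 0.26 to 0.51.

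For every member the range within at least 1 group was wider than the difference between the group means, which is another measure. Within the other group it was narrower for Nfkbia, Nfkbie and Nfkbiz (anti-IL-10R arrays) and for Tnfaip3 (isotype arrays). Among isotype arrays the range from lowest to highest was 0.08 for Nfkb2 and 0.81 for Nfkbiz, and among anti-IL-10R arrays it was 0.15 for Nfkbia and 0.74 for Tnfaip3. Isotype replicate 1 was the lowest isotype array for 3 of the 9 members (Nfkb2, Nfkbia and Nfkbiz), where it was the lowest for 53.6% of the tested genes. Averaged over the 9 members after centring each gene on its mean, the isotype arrays stood at −0.15, −0.10, 0.01 and −0.12 and the anti-IL-10R arrays at 0.05, 0.08, 0.08 and 0.14. Isotype replicate 3 was thus the isotype array closest to the anti-IL-10R arrays in these genes.

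The rest of the pathway was read from lists by role. Over 6 roles and the stress genes, 96 listed genes were bright enough to test, of which 1 rose and 1 fell, near the 2.53% called among all tested genes. The counts by role below stand beside shares over all tested genes of 20.0% at an unadjusted p below 0.05 (11.5% higher), and of 15.3% with groups that did not overlap (9.32% higher). Without isotype replicate 1, 9 of the 96 passed, near the 9.25% of all tested genes that passed in that fit. Traf5, an adaptor of costimulatory receptors of the tumour necrosis factor family, rose, and Il18rap, the accessory chain of the interleukin 18 receptor, fell. The calls held in 7 of 17 alternatives for Traf5 and in 6 of the 16 that tested Il18rap. Of the fits with an array left out, they held without isotype replicate 1 for both and without anti-IL-10R replicate 2 for Il18rap. The differences themselves changed little with any array left out, from 0.64 to 0.78 for Traf5 and from −1.14 to −0.84 for Il18rap.

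Among receptors that feed the pathway, 0 of 14 tested genes rose and 1 fell (6 had an unadjusted p below 0.05 in limma, 4 of them higher). Groups did not overlap for 4 higher and 2 lower genes. Il18rap had 6.04, 5.65, 5.87 and 5.99 in the isotype and 4.59, 5.51, 4.803 and 4.84 in the anti-IL-10R arrays, all lower, a difference of −0.95 ± 0.19 (SE, limma adjusted p = 0.040). With an anti-IL-10R mean of 4.93, under the limit for dim signals, the size of this fall is uncertain. The gene was tested only through its isotype arrays, with a mean of 5.89. Without the filter on dim genes Il18rap did not pass (limma adjusted p = 0.056). The partner chain of Il18rap, Il18r1, differed by −1.02 ± 0.25 without passing (adjusted p = 0.062), and by −1.09 without isotype replicate 1, where it passed (adjusted p = 0.030). Tnfrsf1b, the second receptor for tumour necrosis factor, had 10.18 to 10.38 in the isotype and from 10.56 to 11.05 in the anti-IL-10R arrays, which did not overlap, with a difference of 0.55 ± 0.14 (adjusted p = 0.065), or 0.52 and past the threshold without isotype replicate 1 (adjusted p = 0.045). The costimulatory receptor Cd27 differed by 0.40 ± 0.13 (adjusted p = 0.13). The receptor list's median difference was 0.18, with 11 of 14 higher.

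Of 13 ligand genes 5 were bright enough to test, and none passed (3 had an unadjusted p below 0.05 in limma). Ltb, which encodes lymphotoxin beta, differed by 0.60 ± 0.18 (SE, limma adjusted p = 0.098) and Tnfsf4, the ligand of OX40, by 0.64 ± 0.24 (adjusted p = 0.18). They were the only 2 of the 5 with groups that did not overlap. Tnfsf4 differed by 0.39 without isotype replicate 1. Cd70, the ligand of CD27, differed by −0.36 ± 0.16, or −0.22 without anti-IL-10R replicate 1. It too was tested only through its isotype arrays, with a mean of 5.55. Its anti-IL-10R mean of 5.18 was under the limit for dim signals. Tnfsf9, the ligand of 4-1BB, differed by −0.12 ± 0.18, from −0.30 without anti-IL-10R replicate 1 to −0.0019 without replicate 4. Lta, Il1a, Il1b, Il18 and Cd40lg were among the 8 dim ones.

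Between the antigen receptor and the IKK kinases, 0 of 17 tested genes passed (4 had an unadjusted p below 0.05 in limma, all 4 higher), with a median of 0.24. Malt1, a protease of antigen receptor signalling, differed by 0.41 ± 0.11 (SE, adjusted p = 0.083) and Sharpin, a part of the linear ubiquitin ligase, by 0.41 ± 0.11 (adjusted p = 0.081). Tab2, an adaptor of the kinase TAK1, differed by 0.39 ± 0.12 and Ikbkb, the catalytic IKK beta, by 0.47 ± 0.19, or 0.28 without isotype replicate 1. These 4 were named for their small p, and they were the only 4 of the 17 with groups without overlap. Without isotype replicate 1 the list's median was 0.05.

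In the alternative pathway, 1 of 6 tested genes rose and all 6 were higher, with a median of 0.42 (0.28 without isotype replicate 1). Of the 6, 4 had an unadjusted p below 0.05 in limma, all 4 higher, and 4 had groups without overlap. Traf5 had 7.36, 7.39, 7.02 and 7.33 in the isotype and 7.94, 8.05, 8.19 and 7.83 in the anti-IL-10R arrays, which did not overlap. It rose by 0.72 ± 0.13 (SE, limma adjusted p = 0.029), 1.65-fold. Traf1, an adaptor that NF-kappaB itself induces, differed by 0.58 ± 0.16 (adjusted p = 0.089). Map3k14, the kinase NIK that starts the processing of p100, differed by 0.24 ± 0.10 (adjusted p = 0.23). Birc2, a ubiquitin ligase that keeps NIK low, differed by 0.67 ± 0.28, or 0.34 without isotype replicate 1, whose value of 7.55 lay far under the other 7 arrays (8.73 to 9.35). Beside these values, the subunit genes of this arm, Relb and Nfkb2, differed by 0.13 and 0.05, and whether subunits and adaptors differ from each other was not tested.

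Among the other inhibitors, 0 of 16 tested genes passed (5 had an unadjusted p below 0.05 in limma, all 5 higher), with 14 higher and a median of 0.24. Nlrc3, known as a brake on T cell activation, differed by 0.65 ± 0.18 (SE, adjusted p = 0.088; 0.46 and adjusted p = 0.032 without isotype replicate 1). Zc3h12a, the RNase Regnase-1, differed by 0.37 ± 0.13, Tnip3, a partner of A20, by 0.45 ± 0.19, and Cyld, a deubiquitinase, by 0.25 ± 0.10. Only for Nlrc3 and Cyld, among these 4 and among all 16, did the groups not overlap.

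Of 33 genes listed as known targets, 23 were tested and 0 passed (8 had an unadjusted p below 0.05 in limma, 7 of them higher), with 17 higher and a median of 0.19 (0.11 without isotype replicate 1). Icam1, an adhesion molecule, had 8.55 to 9.21 in the isotype and from 9.41 to 9.72 in the anti-IL-10R arrays, a difference of 0.63 ± 0.16 (SE, adjusted p = 0.064). Ier3, an early response gene, differed by 0.61 ± 0.17 and Irf1, an interferon regulatory factor, by 0.45 ± 0.12 (adjusted p = 0.083 for both). Myc, the growth regulator, went the other way, with −0.59 ± 0.16 (adjusted p = 0.080). These 4, named for their small p, had groups without overlap. Of all 23, 9 higher and 1 lower did. Without isotype replicate 1, Icam1 and Myc passed (adjusted p = 0.036 and 0.030). Over all 8 arrays, 17 of the 23 tested targets were higher and 6 lower, where 54.7% of all tested genes were higher. Each is also controlled by other factors, and the part of NF-kappaB in these values was not tested.

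Among stress and immediate-early genes, which respond to cell handling as well as to signals, 0 of 15 tested genes passed (4 had an unadjusted p below 0.05 in limma), 6 were higher and 9 lower, and the median was −0.07. The phosphatase gene Dusp1 differed by 0.67 ± 0.16 (SE, adjusted p = 0.064; 0.58 and adjusted p = 0.047 without isotype replicate 1) and Dusp2 by 0.33 ± 0.12, whereas Egr1 and Egr2, transcription factors induced by antigen receptor signals, differed by −0.39 ± 0.16 and −0.39 ± 0.13. The part of handling in the values of the NF-kappaB genes was not tested.

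**Figure D4:**
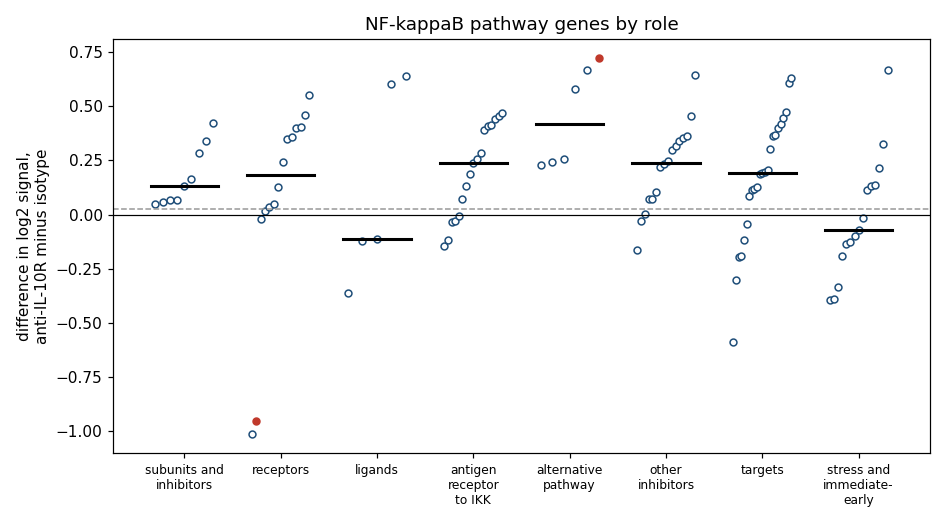
Difference in log2 signal, anti-IL-10R minus isotype, for each tested gene of 8 lists (points, ordered by size within a list; filled red where the limma adjusted p was below 0.05), with list medians as black bars and the median of all tested genes, 0.03, as a dashed line. The subunits and inhibitors lie between 0.05 and 0.42, and Traf5 at 0.72 and Il18rap at −0.95 are the filled points.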

How the data were processed

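RNA of sorted CD8 T cells was measured on 8 GeneChip Mouse Gene 2.0 ST arrays, 1 per sample, and samples were grouped by their labels. The deposited values are log2 signals. Per the submitters' processing notes, the authors used Affymetrix Power Tools; its version, summarisation and normalization were not stated in those notes. No pair of arrays held identical values (0 identical pairs).

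Rows were named from GEO's platform annotation, with symbols updated through gene identifiers (RefSeq, GRCm38.p6). Of the 41345 rows, 23521 had 1 symbol, 1814 had several and 16010 had no entry. The brightest row of each gene was kept. Genes with a mean of 5.24 or more (the middle of all row means) were tested by limma 3.58.1 (R 4.3.3; lmFit, then eBayes with no trend), two-sided, with Benjamini-Hochberg adjustment over all 12019 tested genes and a threshold of 0.05. The fit was tested on simulated data, where it called 67% of 2-fold and 94% of 4-fold changes, and 6.4% of the calls were false. Changes below 2-fold, such as those of the members, were not simulated.

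The members and the pathway lists were chosen with earlier results of these data known. All members are named; of each pathway list, the genes past the threshold and up to 4 with the smallest p are named. The 3 genes nearest to the member with the smallest p, and the nearest other member of each, were found by root-mean-square distance. The alternatives were other filters on dim genes, quantile normalization, median centring, the mean of a gene's rows, a trended robust variance, the mean of the B cell markers as a covariate, array weights (statmod 1.5.0), a block for the replicate number and each array left out. Detection per probe was not set, since no scanner files were used, and precision is limited by the number of arrays.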

Additional observations from a re-analysis of the deposited data

Results flagged for a closer look

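Over the 9 members and 28 named pathway genes in both groups, 74 sets of 4 arrays were examined, and 5 held an array whose gap to the nearest other passed Dixon's 95% critical value, where chance gives about 1 in 20, or 3.7. None of the 5 was a member. Il18r1 was 7.08 on isotype replicate 4 against 6.29 to 6.39 on the other isotype arrays. Cd27 was 9.999 on isotype replicate 1 against 10.37 to 10.41. Traf5 was 7.02 on isotype replicate 3 against 7.33 to 7.39. Birc2 was 9.35 on anti-IL-10R replicate 2 against 9.14 to 9.16. Zc3h12a was 6.85 on anti-IL-10R replicate 4 against 7.19 to 7.26.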

How the results depend on the processing

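The count of members past the threshold was 0 in all 17 alternatives, with a smallest adjusted p among members of 0.052 (Nfkbie, array weights) to 0.33 (Tnfaip3, without anti-IL-10R replicate 4). The members' median difference was 0.07 after quantile normalization, 0.09 after median centring, 0.24 with the mean of the B cell markers as a covariate and 0.08 to 0.16 with an array left out. All members stayed positive except Bcl3, at −0.016 after quantile normalization, −0.0046 with the B cell covariate and −0.013 to 0.15 with an array left out, below 0 without anti-IL-10R replicate 2. Several others came close to 0 on rescaling. After quantile normalization Nfkb2 differed by 0.00074, Rela by 0.0048 and Rel by 0.022. After median centring Nfkb2 differed by 0.0033, Bcl3 by 0.014, Rela by 0.023 and Rel by 0.025. Over all tested genes the count was 145 without a filter, 460 with the stricter filter (means of at least 6.97), 631 after quantile normalization, 117 after median centring, 1469 with array weights, 4 with the B cell covariate, and 3 to 1112 with an array left out. In the pathway lists it was 1, 4, 6, 0, 18 and 0 in the same order, 6 with a trended robust variance and 0 to 9 with an array left out. With the replicate number as a block, 4 genes passed over all genes and 0 in the lists. Deviations of arrays that share a number correlated at −0.05, 0.12, 0.02 and −0.16. These values were taken over genes after removing each group's mean. They cannot decide whether such arrays share more than a number. The cause of these moves was not tested.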

Other observations

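In 3 genes of the lists, picked with their values in view, isotype replicate 1 stood far below the other 7 arrays. Nr4a1, an early gene of antigen receptor signalling, was 7.11 there, 9.12 to 9.38 on the other isotype arrays and 8.45 to 8.79 on the anti-IL-10R arrays. Its difference was −0.14 ± 0.43 (SE, limma adjusted p = 0.90), and −0.67 ± 0.12 (adjusted p = 0.013) without that array, where 9.25% of all tested genes passed. Traf6, a ubiquitin ligase that activates TAK1, was 6.06 against 7.68 to 8.39, and its difference went from 0.46 to −0.07 without it. Tab3, an adaptor of TAK1, was 5.84 against 7.04 to 7.68, and its difference went from 0.44 to 0.11.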
